A study of Mus musculus with 11 samples.

Results

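The genes described here encode the proteins of the cytosolic ribosome. They were chosen by symbol, as every gene in the deposited count table named Rpl or Rps with a number and at most 1 suffix letter (a, x or l), together with Rplp0, Rplp1, Rplp2 and Rpsa, leaving out Rpl10l. The rule gave 81 of 25239 genes, 49 of the large subunit and 32 of the small subunit. Poly(A)-selected RNA was sequenced at day 0 from J1 cells, a line of mouse embryonic stem cells, with 1 library for each of the genotypes TKO_602, TKO_FL and TKO. The cells of all 3 genotypes grew on mitomycin C-treated mouse embryonic fibroblasts in medium with serum and LIF, the cytokine that keeps embryonic stem cells undifferentiated. Other samples of the series spell TKO as DNMT TKO, after the DNA methyltransferases, so TKO is the background that TKO_FL and TKO_602 are set against. The labels do not spell out FL or 602, nor say whether each line is 1 clone. The series also has 8 immunoprecipitations of genomic DNA, which are not analysed here.

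A ribosome joins a small subunit, which decodes the mRNA, to a large subunit, which forms the peptide bond and holds the exit tunnel for the new protein. Apart from the stalk, each subunit holds its proteins in equal number around the ribosomal RNA, and cells spend a large part of their transcription on these genes. Their mRNAs are classic carriers of the terminal oligopyrimidine (TOP) start, a C followed by a run of C and T, through which mTOR signalling sets how much of them is translated. Ribosomal protein genes also have many processed pseudogenes, copies of the spliced mRNA pasted elsewhere in the genome.

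The libraries held 43158441 reads on genes for TKO_602, 19573689 for TKO_FL and 21133660 for TKO. The alignment of TKO_602 lay in another folder than the other alignments, per the file header, so for TKO_602 a difference of genotype and one of library handling cannot be told apart. With 1 library per genotype no difference between genotypes has a replicate error or a test. Levels are given as CPM, the read count scaled to library size with TMM factors. Dnmt1, the maintenance DNA methyltransferase, had 2444 CPM in TKO_602, 3364 CPM in TKO_FL and 159 CPM in TKO. Its transcript was thus far higher in TKO_602 and TKO_FL than in TKO. Dnmt3a had 27.8, 36.1 and 35.2 CPM and Dnmt3b had 11.9, 34.0 and 71.7 CPM in TKO_602, TKO_FL and TKO. Which parts of these genes were deleted is not stated. The reads of Dnmt3a and Dnmt3b, and those of Dnmt1 in TKO, therefore check no label. Folds are given as log2 of CPM plus 1, and each interval is an exact 95% binomial interval that covers counting error only. Intervals of folds are for the ratio without the added 1 CPM, so for genes of low CPM the fold need not lie near their middle. Embryonic stem cell markers were present throughout: 8 of 8 were detected, with a summed level of 7102 CPM in TKO_602, 7058 CPM in TKO_FL and 5710 CPM in TKO. Dppa5a made up 2441, 1632 and 1144 CPM of these sums. Single markers went different ways in TKO_602 over TKO: 6 lay above 0, led by Klf4 (1.19) and Dppa5a (1.09), and 2 below, Zfp42 (-0.60) and Pou5f1 (-0.25). Of all genes tested 52% lay above 0. The sums are thus not read as a common change of these markers. Of 15 fibroblast markers 14 reached 1 CPM and none was at 0 reads in any library; their summed level was 2160 CPM in TKO_602, 1900 CPM in TKO_FL and 1788 CPM in TKO, most of it from Fn1 (1558, 1506 and 1085 CPM in the same libraries). Without Fn1 the sums were 602 CPM in TKO_602, 394 CPM in TKO_FL and 703 CPM in TKO. Of the 14 markers, 13 were below 0 in TKO_FL over TKO (median log2 fold -0.66), where 6781 of all 13563 genes that reached 1 CPM were. In TKO_602 over TKO 9 were below 0 (median -0.21), where 6599 of 13748 genes were. In TKO_602 over TKO_FL 4 were below 0 and 10 above (median 0.24), where 52.3% of all genes were above. Feeder markers thus differed between the libraries, most clearly in TKO_FL against TKO. Ribosomal protein mRNAs are made by both cell types, and the part of feeder RNA in the values below was not tested.

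Promoter windows in RefSeq (GRCm38.p6) matched 60 of the 81 genes. A window runs from 250 bases before to 50 bases after an annotated start, and the following stretches run from 60 before to 20 after it. They show 2 genes with a short paralog (Rps27 with Rps27l, and Rpl39 with Rpl39l) and 3 genes with folds at the ends of the range (Rps28, Rpl36a and Rpl12). Rpl38 was chosen after its sequence was seen, since it shows repeated matches and a TOP-type start together. Capitals mark matches to CTTTCC, read on the transcript strand, and to CGGAAG or its reverse complement CTTCCG, the core of sites for ETS factors. They also mark TATAAA, the letters of the TATA box, on the transcript strand at any position. The match to TATAAA in Rpl36a begins 3 bases after the annotated start.
Rps27, chr3:90213629-90213708, minus strand: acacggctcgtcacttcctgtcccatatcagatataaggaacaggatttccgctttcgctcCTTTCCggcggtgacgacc
Rps27l, chr9:66946026-66946105, plus strand: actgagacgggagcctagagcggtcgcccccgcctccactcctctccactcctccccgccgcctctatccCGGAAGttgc
Rpl39, chrX:37085203-37085282, minus strand: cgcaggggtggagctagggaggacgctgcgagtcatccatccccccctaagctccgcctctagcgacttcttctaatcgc
Rpl39l, chr16:10170168-10170247, plus strand: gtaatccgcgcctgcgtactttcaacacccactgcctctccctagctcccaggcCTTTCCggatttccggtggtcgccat
Rps28, chr17:33824543-33824622, minus strand: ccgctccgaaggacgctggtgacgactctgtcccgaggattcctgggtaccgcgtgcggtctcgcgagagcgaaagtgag
Rpl36a, chrX:134585594-134585673, plus strand: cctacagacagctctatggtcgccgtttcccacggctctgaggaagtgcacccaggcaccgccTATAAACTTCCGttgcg
Rpl12, chr2:32961652-32961731, plus strand: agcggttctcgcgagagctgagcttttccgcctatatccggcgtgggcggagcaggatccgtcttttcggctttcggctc
Rpl38, chr11:114668520-114668599, plus strand: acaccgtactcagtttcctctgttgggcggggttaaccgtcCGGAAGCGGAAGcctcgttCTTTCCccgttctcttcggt

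Over the whole windows, CGGAAG on either strand was in 68.3% of the 60 ribosomal protein genes and in 18.7% of 26965 other genes with a window. The other genes were not selected by expression or matched by number of windows. Whether these shares differ from those of other well expressed genes was not tested. CTTTCC on the transcript strand was in 41.7% of the ribosomal protein genes and 16% of the others. A C followed by at least 4 C or T within 10 bases before to 15 bases after the annotated start was in 63.3% of the ribosomal protein genes and 34.3% of the others. AAGATGG on either strand, the core of YY1 sites, was in 15% and 7.26%, and TATAAA on the transcript strand was in 10% and 9.77%. Matches can share bases with each other, and a CTTTCC at the start is itself such a pyrimidine run. In the printed stretches CTTTCC lies at or next to the annotated start in Rps27 and Rpl38, and before it in Rpl39l. These letters are not in the printed stretches of Rps28, Rpl39 and Rpl12.

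Reads of the 81 genes made up 8.435% of the TKO_602 library, 7.517% of the TKO_FL library and 7.101% of the TKO library. Their 95% counting intervals, 8.423 to 8.446% in TKO_602, 7.501 to 7.534% in TKO_FL and 7.086 to 7.117% in TKO, did not overlap. Such intervals are narrow at this depth, and those of the embryonic stem cell and fibroblast marker shares did not overlap either. They do not cover the spread between libraries of 1 genotype, so no genotype difference is read from them. The summed level was 81226 CPM in TKO_602, 76503 CPM in TKO_FL and 72456 CPM in TKO. In bulk RNA a change in the mix of cells and a change in RNA per cell cannot be told apart. Both subunits had this order: the large subunit summed to 45558 CPM in TKO_602, 44187 CPM in TKO_FL and 41720 CPM in TKO, and the small subunit to 35668, 32316 and 30736 CPM in the same libraries. The sum over all members kept the order TKO_602, TKO_FL, TKO under every scaling tried.

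Levels between genes were compared per exonic length, as RPKM, the CPM divided by exonic length in kilobases. The 73 genes with a mean of at least 100 CPM over the libraries had a median of 1252 RPKM in TKO_602, 1173 RPKM in TKO_FL and 1183 RPKM in TKO. From the lower to the upper quartile they ran from 794 to 1744 RPKM in TKO_602, from 706 to 1638 RPKM in TKO_FL and from 695 to 1596 RPKM in TKO. The highest of these genes had 45.2 times the RPKM of the lowest in TKO_602, 56.2 times in TKO_FL and 45.6 times in TKO. The lowest was Rps15a in TKO_602 (93.2 RPKM) and TKO (88.8 RPKM), at 478 and 456 CPM over an exonic length of 5134 bases. In TKO_FL it was Rpl21 (71.9 RPKM), for which RefSeq names 15 pseudogenes. The ratios are thus not read as a spread of mRNA level, and the parts of annotated length and mapping were not tested. Rpl41, which encodes the shortest protein of the large subunit, was the highest by its mean (3703 RPKM), with 3021 RPKM in TKO_602, 4038 RPKM in TKO_FL and 4048 RPKM in TKO. Rps26, which sits at the mRNA exit channel of the small subunit, had 3361 RPKM in TKO_602, 3709 RPKM in TKO_FL and 3354 RPKM in TKO. Rplp1, an acidic protein of the stalk that recruits elongation factors, had 3433 RPKM in TKO_602, 3573 RPKM in TKO_FL and 3306 RPKM in TKO. Rpl41 was the lowest of these 3 genes in TKO_602 and the highest in TKO_FL and TKO.

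**Figure D1:**
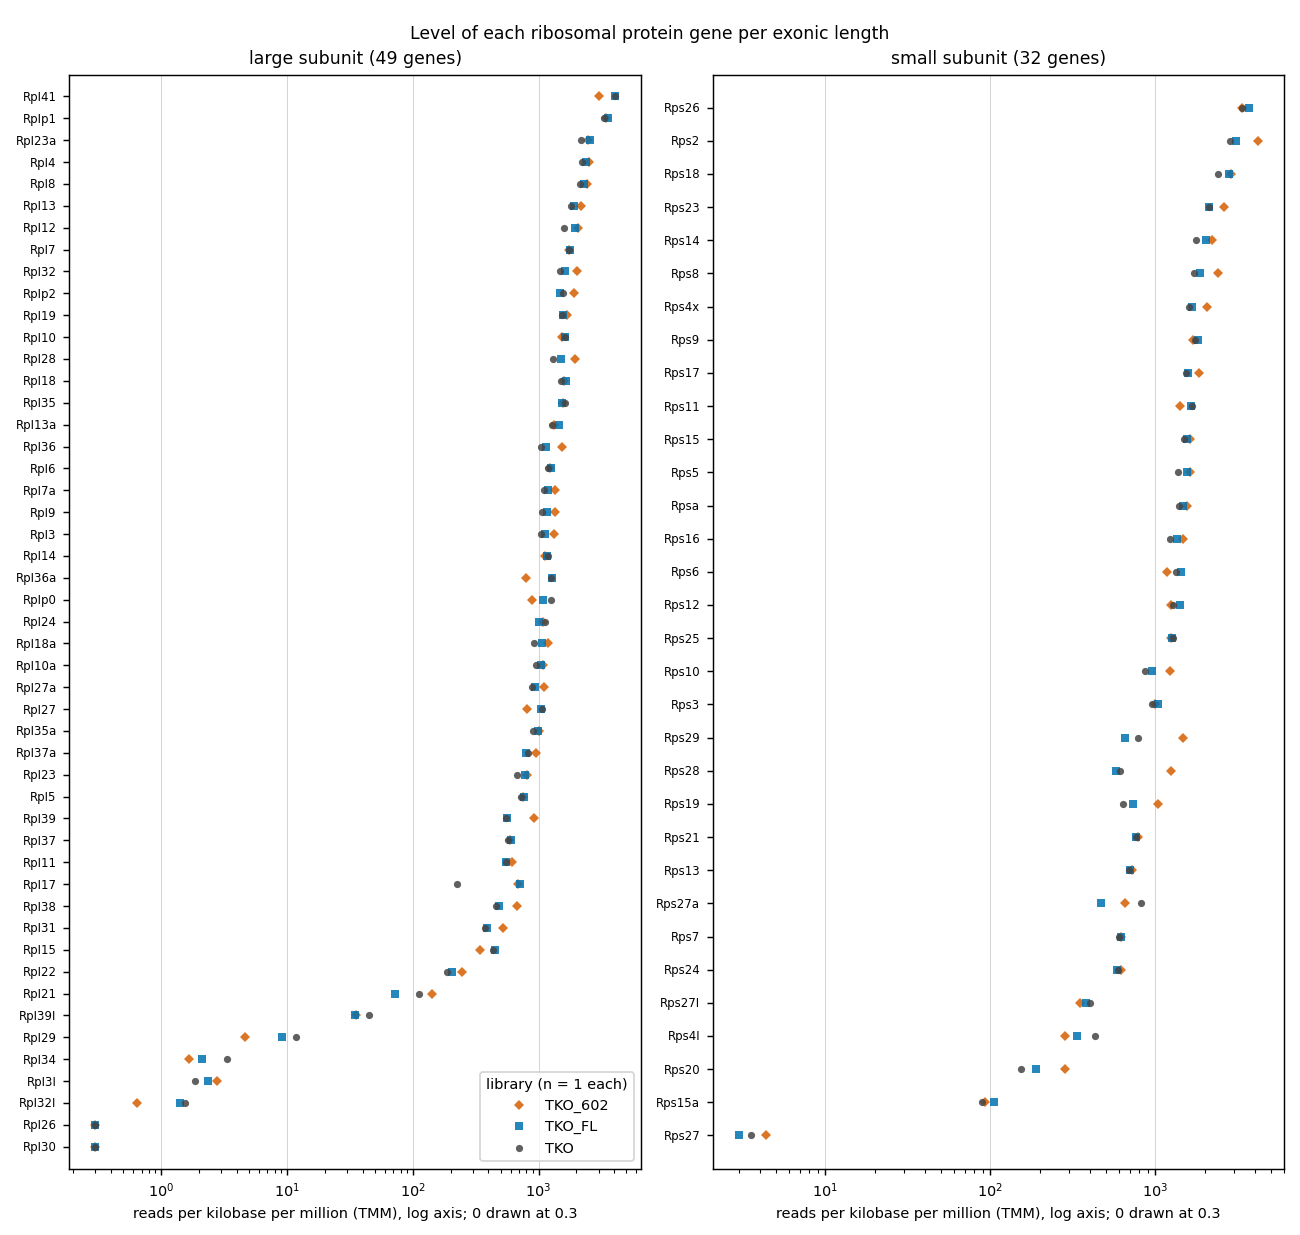
Level of each of the 81 genes in TKO_602, TKO_FL and TKO (1 library each), in RPKM on a log axis, ordered by mean level within the large subunit (left) and the small subunit (right). Rpl41 has the highest mean (3703 RPKM), and Rpl26 and Rpl30 are at 0 (drawn at 0.3).

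Of the 81 genes 79 had reads in every library, and the 8 genes under a mean of 100 CPM were Rpl26, Rpl30, Rpl29, Rpl32l, Rpl34, Rpl39l, Rpl3l and Rps27. Rpl26 and Rpl30, large subunit proteins found in every ribosome, had 0 reads in all 3 libraries. Their exons share 95.8% and 76.0% of their bases with another gene model on the same strand, Gm15772 for Rpl26 and Gm12191 for Rpl30, and reads that fall on overlapping genes are left out by the counting defaults. The same holds for Rps27, a zinc finger protein of the small subunit, and Rpl34, of the large subunit. Rps27 shares 60% of its exonic bases with Rps27rt and had 113 reads in TKO_602, 33 in TKO_FL and 42 in TKO. Rpl34 shares 59.9% with Rpl34-ps1 and had 51 reads in TKO_602, 28 in TKO_FL and 48 in TKO. These were the 4 genes with over 50% of their exonic bases shared, and the partner models held at most 1 read in any library. The counts of these 4 genes are not read as levels of their mRNA here.

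Of the 12 genes that share any exonic base with another model, the remaining 8 had a mean above 100 CPM. The highest share among them was that of Rpl5 (47.8%, with Dipk1a on the opposite strand), followed by Rpl31 (33.1%, Tbc1d8) and Rps25 (29.4%, Ccdc84). Tbc1d8 had 1647 reads in TKO_602, 244 in TKO_FL and 151 in TKO, beside 29575, 9319 and 9666 reads on Rpl31. The counts use no strand, so reads of such pairs cannot be told apart by it. Rpl29, a large subunit protein also known to bind heparin, shares no base with another model, has 5 named pseudogenes in RefSeq, and had 5.44 CPM in TKO_602, 10.7 CPM in TKO_FL and 13.8 CPM in TKO. RefSeq names 316 pseudogenes for 63 of the 81 genes, and reads that map to several places are left out by the defaults of the counting tool. Among the 73 genes with a mean of at least 100 CPM, the median log2 fold of TKO_602 over TKO was 0.16 for 15 genes with no named pseudogene, 0.10 for 37 genes with 1 to 4, and 0.25 for 21 genes with 5 or more.

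**Figure D2:**
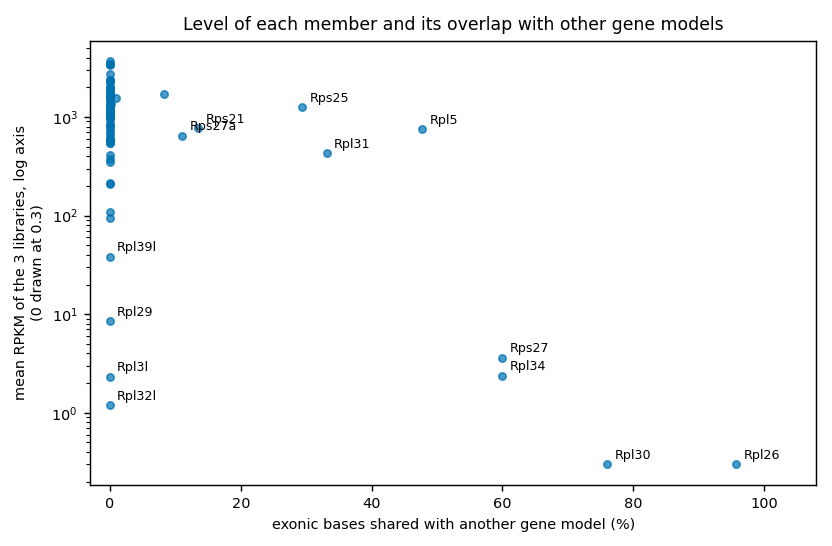
Mean level of each gene over the 3 libraries (RPKM, log axis, 0 drawn at 0.3) against the share of its exonic bases that lies in another gene model, with 1 point per gene. The 4 genes past 50% (Rps27, Rpl34, Rpl30 and Rpl26) lie below all genes with a smaller overlap except Rpl3l and Rpl32l.

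In TKO_FL against TKO the group as a whole differed little, and Rpl17 stood apart. The median log2 fold of TKO_FL over TKO was 0.07 over the 78 genes that reached 1 CPM in one of the libraries, and 0.00 over the 13563 such genes in all. Above 0 lay 55 of the 78 (70.5%), against 50% of all genes tested, and 54 of the 73 with a mean of at least 100 CPM (74%), against 47.8% of all genes at that level. At least 2-fold higher was 1 gene (Rpl17), where the background was 3.24% of all genes, and 0 were at least 2-fold lower, where it was 2.5%. At 1.5-fold 1 gene was higher (background 10.7%) and 2 were lower (background 9.18%). Among genes with a mean of at least 100 CPM, 1 of the 73 was 2-fold apart in either direction and 3 (4.11%) were 1.5-fold apart, against 1.17% and 5.75% of all genes at that level.

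Rpl17 encodes a large subunit protein at the exit tunnel and lies on chromosome 18 (mm10, chr18:75000477-75003381). It had 535 CPM in TKO_602, 547 CPM in TKO_FL and 173 CPM in TKO. The library that differs is TKO. The log2 fold was 1.66 for TKO_FL over TKO (interval 1.58 to 1.74), 1.62 for TKO_602 over TKO (1.56 to 1.70), and -0.03 for TKO_602 over TKO_FL (-0.08 to 0.02). The 2 comparisons with TKO share its library. In the authors' second gene table, which holds TKO_FL and TKO, its log2 fold was 1.64 on the TPM scale. RefSeq names 11 pseudogenes of Rpl17.

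Rps27a encodes a fusion of ubiquitin with a small subunit protein. It had 540.5 CPM in TKO_602, 382 CPM in TKO_FL and 675 CPM in TKO, so TKO_FL was the lowest, with a log2 fold over TKO of -0.82 (interval -0.88 to -0.76). Rpl21, of the large subunit, had 264 CPM in TKO_602, 133 CPM in TKO_FL and 209 CPM in TKO, and its log2 fold of TKO_FL over TKO was -0.65 (-0.75 to -0.55), or -0.86 on the TPM scale. Both genes had their lowest level in TKO_FL, and RefSeq names 3 pseudogenes of Rps27a and 15 of Rpl21. Next to Rpl17, the highest folds of TKO_FL over TKO were those of Rps20 (0.29), Rpl12 (0.29, in the base of the stalk), Rpl3l (0.28, at 3.80 CPM in TKO_FL and 2.95 CPM in TKO) and Rps15a (0.23). At the low end Rpl34 (-0.43), Rpl39l (-0.36) and Rps4l (-0.36) followed, of which Rpl34 is a gene with mostly shared exons.

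**Figure D3:**
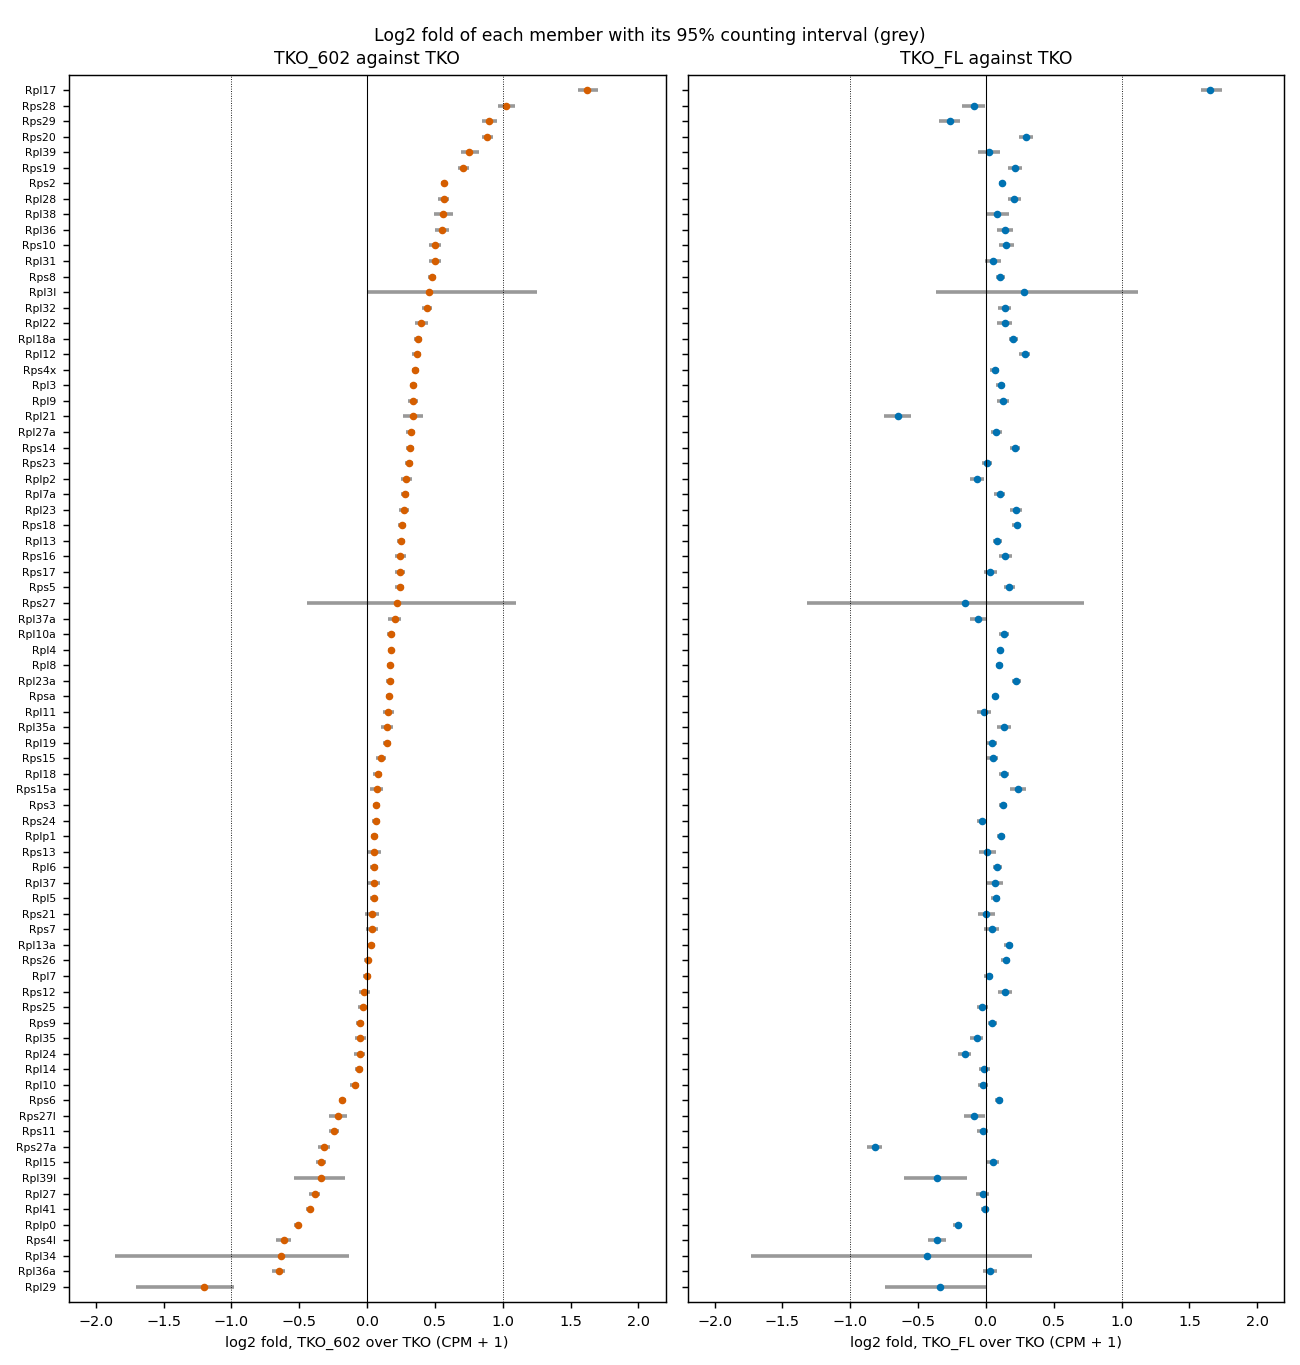
Log2 fold of each of the 78 genes with at least 1 CPM, TKO_602 over TKO (left) and TKO_FL over TKO (right), on the log2(CPM + 1) scale with 95% counting intervals in grey; dotted lines mark 2-fold. Both panels share the TKO library and the gene order of the left panel. Rpl17 is past 2-fold in both (1.62 and 1.66), Rps28 and Rpl29 in the left panel (1.03 and -1.20). Rpl29 has low counts (5.44 CPM in TKO_602 and 13.8 CPM in TKO).

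In TKO_602 against TKO the genes lay slightly higher as a group while most well expressed genes lay lower. The median log2 fold of TKO_602 over TKO was 0.17 over the 78 genes, 0.03 over all 13748 genes tested and -0.14 over the 2402 genes with a mean of at least 100 CPM. Above 0 lay 57 of the 78 (73.1%), against 52% of all genes tested, and 55 of the 73 with a mean of at least 100 CPM (75.3%), against 39.4% of all genes at that level. At least 2-fold higher were 2 genes (Rpl17 and Rps28), where the background was 11%. At least 2-fold lower was 1 gene (Rpl29, at only 5.44 CPM in TKO_602 and 13.8 CPM in TKO), where it was 8.06%. At 1.5-fold 6 genes were higher (background 22.9%) and 4 lower (background 18.9%). Among genes with a mean of at least 100 CPM, 2 of the 73 were 2-fold apart and 8 (11%) were 1.5-fold apart, against 9.74% and 29.5% of all genes at that level. With library totals and no TMM factor the split at 1.5-fold was 11 higher and 1 lower. The median was then 0.25, with that of all genes at 0.12.

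The 6 higher genes were Rpl17, Rps28, Rps29, Rps20, Rpl39 and Rps19. Rps28 and Rps29 encode short proteins of the small subunit. Rps28 had 494 CPM in TKO_602, 228 CPM in TKO_FL and 242 CPM in TKO, a log2 fold of TKO_602 over TKO of 1.03 (interval 0.97 to 1.09). Rps29 had 574 CPM in TKO_602, 255 CPM in TKO_FL and 307 CPM in TKO, a log2 fold of 0.90 (0.85 to 0.96). For both genes TKO_602 was the highest library, and TKO_FL and TKO differed by less (log2 folds of TKO_FL over TKO of -0.09 and -0.27). Rpl39, a short protein that lines the exit tunnel, had 403 CPM in TKO_602, 243 CPM in TKO_FL and 239 CPM in TKO (0.75, 0.69 to 0.82), again with TKO_602 alone high. Rps20, in the head of the small subunit, had 977 CPM in TKO_602, 647 CPM in TKO_FL and 528 CPM in TKO (0.89, 0.84 to 0.93). Rps19, a protein mutated in Diamond-Blackfan anaemia in humans, had 1022 CPM in TKO_602, 725 CPM in TKO_FL and 625 CPM in TKO (0.71, 0.67 to 0.75). For Rps20 and Rps19 TKO_FL lay between the other libraries.

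The 4 lower genes were Rpl29, Rpl36a, Rpl34 and Rps4l. Rpl34 is a gene with mostly shared exons, whose counts are not read as levels of its mRNA. Among the 73 genes with a mean of at least 100 CPM, 2 were at least 1.5-fold lower, Rpl36a and Rps4l. Rpl29, whose levels are given above, had a log2 fold of TKO_602 over TKO of -1.20 (-1.70 to -0.98). Its mean of 8.54 RPKM was close to those of Rps27 (3.63) and Rpl34 (2.38), where the median of the 73 genes was 1198 RPKM. Its log2 fold of TKO_FL over TKO was -0.34, or -0.62 on the TPM scale. Whether the counts of Rpl29 follow its mRNA was not tested, so its folds are not read as changes of its mRNA in any comparison. Rpl36a is a large subunit protein whose window above holds TATAAA and CTTCCG side by side, both after the annotated start. Rpl36a had 388 CPM in TKO_602, 622 CPM in TKO_FL and 610 CPM in TKO (-0.65, -0.70 to -0.60), so TKO_602 alone was low. Rps4l, a paralog of Rps4x with 1 exon, had 265 CPM in TKO_602, 317 CPM in TKO_FL and 406 CPM in TKO (-0.62, -0.68 to -0.56). The fifth lowest fold was that of Rplp0, the base of the stalk, with 1201 CPM in TKO_602, 1482 CPM in TKO_FL and 1713 CPM in TKO (-0.51, -0.54 to -0.48).

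In TKO_602 against TKO_FL the median log2 fold was 0.07 over the 78 genes and 0.03 over all 13683 genes tested, and 49 of the 78 lay above 0 (62.8%, against 52.3% of all genes). Of the 73 with a mean of at least 100 CPM 46 lay above 0 (63%), against 36.6% of all genes at that level. At least 2-fold higher were 2 genes (background 6.75%), Rps29 (1.17, interval 1.11 to 1.23) and Rps28 (1.11, 1.05 to 1.18), and 0 were at least 2-fold lower (background 4.87%). At 1.5-fold 5 genes were higher (background 18.5%) and 2 lower (background 14.4%). Among genes with a mean of at least 100 CPM, 2 of the 73 were 2-fold apart and 6 (8.22%) were 1.5-fold apart, against 5.33% and 21.4% of all genes at that level. The 5 were Rps29, Rps28, Rpl21 (0.98), Rpl39 (0.73) and Rps20 (0.59), and the 2 were Rpl29 (-0.86) and Rpl36a (-0.68). Rpl41 (-0.42), Rpl15 (-0.39) and Rpl27 (-0.36) followed at the low end.

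**Figure D4:**
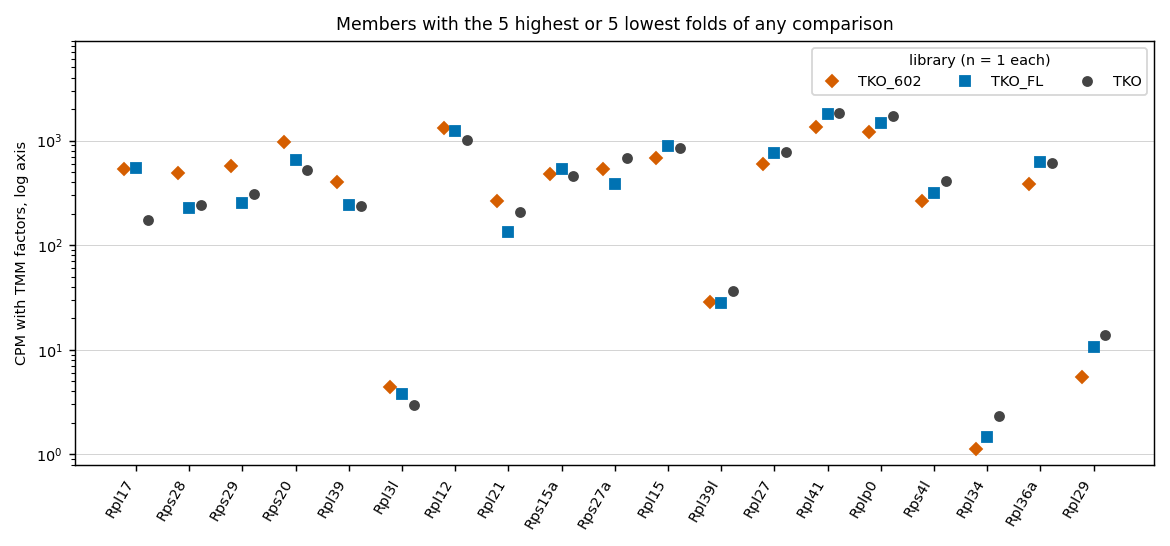
CPM with TMM factors, on a log axis, of the 19 genes with the 5 highest or the 5 lowest log2 folds in any comparison, with TKO_602, TKO_FL and TKO side by side (1 library each) and genes ordered by the fold of TKO_602 over TKO. Rpl17 is low in TKO alone (173 CPM), Rps28, Rps29 and Rpl39 are high in TKO_602 alone, and Rps27a and Rpl21 are lowest in TKO_FL.

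TKO_602 was the most frequent highest library and TKO the most frequent lowest one. Of the 73 genes with a mean of at least 100 CPM, 43 were highest in TKO_602 (58.9%), against 29.3% of 2329 other genes at that level. TKO was the lowest library for 48 of the 73 (65.8%), against 28% of the others. With other scalings the count highest in TKO_602 was 43 to 57 and the count lowest in TKO was 45 to 51. By exonic length, the 13 genes of up to 500 bases had a median log2 fold of TKO_602 over TKO of 0.29 (-0.65 to 1.03) and of TKO_602 over TKO_FL of 0.35 (-0.68 to 1.17). The medians of the genes over 500 and up to 700 bases were 0.15 over TKO and 0.04 over TKO_FL, with 19 genes. Only 5 other genes at that level were as short as 500 bases, with medians of -0.35 over TKO and -0.18 over TKO_FL. Whether fragment length differed between the libraries was not tested.

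In the stalk, Rplp1 had a log2 fold of TKO_602 over TKO of 0.05 and Rplp2 of 0.29, while Rplp0, which anchors both, had -0.51. Rplp2 had 868 CPM in TKO_602, 679 CPM in TKO_FL and 710.5 CPM in TKO. Rpl5, Rpl11 and Rpl23, which bind MDM2 and so restrain the breakdown of p53, had folds of TKO_602 over TKO of 0.05, 0.16 and 0.27 and of TKO_FL over TKO of 0.07, -0.01 and 0.22. Rpl5 had 1523 CPM in TKO_602, 1547 CPM in TKO_FL and 1473 CPM in TKO. None of these 6 genes (Rplp0, Rplp1, Rplp2, Rpl5, Rpl11 and Rpl23) was 1.5-fold apart in any comparison. Of all genes with a mean of at least 100 CPM, 5.75% were 1.5-fold apart in TKO_FL over TKO. The share was 29.5% in TKO_602 over TKO and 21.4% in TKO_602 over TKO_FL. With so few genes, 0 of 6 is not read as a trait of the stalk or of the MDM2-binding genes.

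Paralogs, which can take the place of a standard protein in the ribosome, were measured beside their main forms. Rps27l, a known p53 target, had 239 CPM in TKO_602, 262 CPM in TKO_FL and 278 CPM in TKO. Its main form Rps27 cannot be read from these counts, as given above. Rpl39l, known from the testis, had 28.4 CPM in TKO_602, 28.0 CPM in TKO_FL and 36.3 CPM in TKO, far below Rpl39 per length (38.4 against 679.5 RPKM by the mean). Rpl3l, a heart and skeletal muscle form of Rpl3, had 4.42 CPM in TKO_602, 3.80 CPM in TKO_FL and 2.95 CPM in TKO, where Rpl3 had 1809 CPM in TKO_602, 1541 CPM in TKO_FL and 1429 CPM in TKO. Rps4x, on the X chromosome, had 1988 CPM in TKO_602, 1625 CPM in TKO_FL and 1555 CPM in TKO, the reverse of the order of Rps4l. Rpl32l had under 1 CPM in every library.

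Some ribosomal proteins have symbols that the rule does not match. Fau, Rps3a1 and Rack1, all standard parts of the small subunit, had log2 folds of TKO_602 over TKO of 0.16, 0.03 and 0.00. Rpl22l1, a paralog of Rpl22, had 145.5 CPM in TKO_602, 98.8 CPM in TKO_FL and 79.3 CPM in TKO, a log2 fold of TKO_602 over TKO of 0.87, beside 0.40 for Rpl22 itself. Rpl7l1, a relative of Rpl7 that acts in assembly of the large subunit, had 161 CPM in TKO_602, 311 CPM in TKO_FL and 342 CPM in TKO (-1.08). Rpl36al had 181 CPM in TKO_602, 206 CPM in TKO_FL and 243 CPM in TKO (-0.42), lowest in TKO_602 like Rpl36a. Rpl10l, which the rule leaves out, had 36.7 CPM in TKO_602, 28.5 CPM in TKO_FL and 50.5 CPM in TKO.

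Most genes that make and assemble ribosomes were lower in TKO_602 than in TKO. Of 34 genes of rRNA transcription and nucleolar processing, 33 lay below 0 in TKO_602 over TKO, 21 were at least 1.5-fold lower and 0 at least 1.5-fold higher, with a median log2 fold of -0.70. Over all 13748 genes tested, 6599 lay below 0, 18.9% were at least 1.5-fold lower and 22.9% higher. Among the 2402 genes with a mean of at least 100 CPM, 1455 lay below 0 and 499 were at least 1.5-fold lower. Imp4, of the processome that cuts the rRNA precursor, had 34.1 CPM in TKO_602, 80.3 CPM in TKO_FL and 106 CPM in TKO (-1.60). Heatr1, needed for transcription by RNA polymerase I, had 149 CPM in TKO_602, 339 CPM in TKO_FL and 453 CPM in TKO (-1.59). Nhp2, a protein of the snoRNPs that guide pseudouridylation, had 140 CPM in TKO_602, 319 CPM in TKO_FL and 373 CPM in TKO (-1.41). In all 3 genes TKO_602 was the lowest and TKO the highest library.

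Of 33 ribosome assembly factors, 32 lay below 0, 21 were at least 1.5-fold lower and 0 higher, with a median of -0.76. Bop1, which matures the large subunit, had 68.9 CPM in TKO_602, 127 CPM in TKO_FL and 181 CPM in TKO (-1.38). Mdn1, a large ATPase that strips factors from the large subunit precursor, had 178 CPM in TKO_602, 408 CPM in TKO_FL and 465 CPM in TKO (-1.38). The same lists in TKO_FL over TKO had medians of -0.18 (28 of 34 below 0) and -0.14 (25 of 33 below 0), with 0 genes at least 1.5-fold apart in either list. The background at 1.5-fold lower was 18.9% of all genes in TKO_602 over TKO and 9.18% in TKO_FL over TKO. At 1.5-fold higher it was 22.9% and 10.7%. Below 0 lay 6599 of all 13748 genes tested in TKO_602 over TKO and 6781 of 13563 in TKO_FL over TKO. Under the other scalings the medians in TKO_602 over TKO were -0.72 to -0.62 for the rRNA list and -0.78 to -0.68 for the assembly list.

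The 78 mitochondrial ribosomal protein genes, whose products form the separate ribosome of mitochondria, had a median log2 fold of TKO_602 over TKO of -0.44, with 66 below 0, 24 at least 1.5-fold lower (background 18.9%) and 1 higher (background 22.9%). Mrpl20 had 20.9 CPM in TKO_602, 49.5 CPM in TKO_FL and 84.5 CPM in TKO (-1.96), and Mrps36 had 25.5 CPM in TKO_602, 15.2 CPM in TKO_FL and 14.4 CPM in TKO (0.79). In TKO_FL over TKO the median of the 78 genes was -0.13, with 59 below 0. Of all genes tested, 6599 of 13748 lay below 0 in TKO_602 over TKO and 6781 of 13563 in TKO_FL over TKO. Of 26 translation initiation factors that reached 1 CPM, 11 were at least 1.5-fold lower in TKO_602 than in TKO and 1 was higher, with a median of -0.46, against the same backgrounds. The higher one was Eif4a2, an RNA helicase, with 1437 CPM in TKO_602, 613 CPM in TKO_FL and 532 CPM in TKO (1.43). Eif5a, which helps ribosomes over difficult peptide bonds, had 891 CPM in TKO_602, 1620.2 CPM in TKO_FL and 1980.2 CPM in TKO (-1.15).

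**Figure D5:**
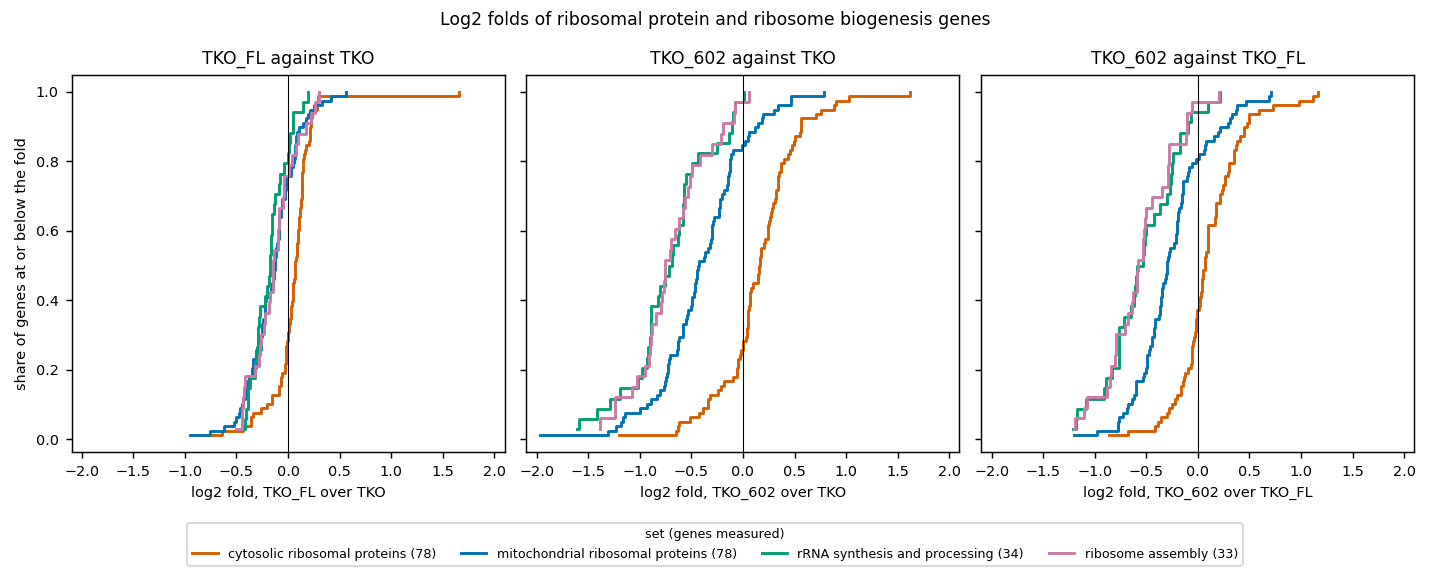
Cumulative share of genes (vertical axis) at or below each log2 fold (horizontal axis, log2(CPM + 1) scale) for cytosolic ribosomal proteins, mitochondrial ribosomal proteins, rRNA synthesis and processing genes and ribosome assembly genes, in TKO_FL against TKO, TKO_602 against TKO and TKO_602 against TKO_FL (1 library each). In the middle panel the cytosolic ribosomal proteins cross the middle at 0.17, while the mitochondrial set crosses at -0.44 and the 2 biogenesis sets at -0.70 and -0.76.

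Translation factors share the TOP start with ribosomal proteins. The 21 translation factors and related genes of this kind had a median log2 fold of TKO_602 over TKO of -0.21, with 6 above 0 (background 52%), 1 at least 1.5-fold higher (background 22.9%) and 3 lower (background 18.9%). Neither share at 1.5-fold exceeds the background. Eef1a1, which brings aminoacyl-tRNA to the ribosome, was the most abundant of them, with 17506 CPM in TKO_602, 17518 CPM in TKO_FL and 14782 CPM in TKO (0.24 over TKO in both comparisons). Npm1, a nucleolar chaperone that is also counted in the list of rRNA transcription and nucleolar processing, had 2494 CPM in TKO_602, 4241 CPM in TKO_FL and 4746 CPM in TKO (-0.93). Of 11 genes of the mTOR and Larp1 axis, which controls translation of TOP mRNAs, 4 were at least 1.5-fold lower and 2 higher in TKO_602 over TKO, against backgrounds of 18.9% and 22.9%, with a median of -0.40. Akt1s1, an inhibitory subunit of mTOR complex 1, had 43.4 CPM in TKO_602, 86.0 CPM in TKO_FL and 94.1 CPM in TKO (-1.10), and Tsc1, which restrains the complex, had 68.7 CPM in TKO_602, 56.0 CPM in TKO_FL and 38.5 CPM in TKO (0.82). In TKO_FL over TKO 0 of these 11 were at least 1.5-fold apart, where the background was 10.7% higher and 9.18% lower.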

How the data were processed

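The deposited gene table holds raw counts of reads made by the authors with featureCounts 2.0.6 on the mm10 RefSeq annotation, per the file headers, which give no setting for strand, multi-mapped reads or overlapping genes. Mates were counted alone. HISAT2 and Trim Galore are named in the submitters' processing notes. A second deposited gene table, of signal per exonic length for TKO_FL and TKO, summed to 10 times TPM and was divided by 10. Each table has 11 library columns that match none of these samples and were not used.

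CPM was computed from the counts with TMM factors from edgeR 4.0.16 over the 3 libraries (1.04 for TKO_602, 0.983 for TKO_FL and 0.980 for TKO), and RPKM from CPM and exonic length. Log2 folds used a pseudocount of 1 CPM and genes with at least 1 CPM in one of the libraries; such folds understate changes of low genes. With 1 library per genotype no test was run, and called means past 2-fold or 1.5-fold. Exact 95% binomial intervals were taken on reads divided by 2, without the pseudocount. Fold code was tested on simulated data. The members, lists and named-gene rule (5 highest and 5 lowest folds per comparison, 3 highest and 3 lowest levels, paralogs, stalk and MDM2-binding genes, genes at 0, and up to 3 largest folds per other list) were chosen with earlier results of these data known. Rps19, Rpl31 and Rps25 were named after their values were seen. Alternatives were DESeq2 1.42.0 size factors, totals with no factor, totals without the members, other pseudocounts and minimums, the second table, and members without named pseudogenes.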

Additional observations from a re-analysis of the deposited data

How the results depend on the processing

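Of 512 log2 folds of named genes under other settings, 457 moved by no more than the width of their counting interval divided by 2, and 55 by more. The sign changed in 4, all of them folds near 0 and 0 of them past 1.5-fold: Rps26 in TKO_602 against TKO with DESeq2 factors (-0.02, from 0.003), and Rpl17 (0.05), Rpl5 (0.06) and Rplp1 (0.02) in TKO_602 against TKO_FL with no factor. With no factor the members above 0 in TKO_602 against TKO_FL were 62 of 78, against 49 with TMM. With library totals and no factor the median log2 fold of the members was 0.248 in TKO_602 against TKO and 0.148 in TKO_602 against TKO_FL; the medians of all genes were then 0.116 and 0.106, so the members' medians lay 0.132 and 0.042 above them, close to the 0.131 and 0.038 with TMM. Among the 18 members without a named pseudogene in RefSeq, an alternative chosen after seeing the data, TKO_FL against TKO had 0 at least 2-fold and 0 at least 1.5-fold apart. TKO_602 against TKO had 1 and 2, and TKO_602 against TKO_FL had 1 and 2, and fewer genes enter these counts. The summed level in TKO_602 was 80047 CPM with DESeq2 factors, 84347 with no factor, 87958 over totals without the members, and 73992 without the 8 members that have a named pseudogene in the gene table. The same 4 values were 75971, 75171, 82854 and 69525 CPM in TKO_FL, and 71011, 78534 and 65976 CPM for the last 3 in TKO. All other medians and total counts of members stayed within their limits, which do not cover the split by direction. At 1.5-fold in TKO_602 against TKO that split was 6 higher and 4 lower with TMM, and 11 and 1 with no factor. The gene lists had no limit set. In that comparison 3 of the 21 translation factors with TOP mRNAs were lower with TMM and 5 with DESeq2 factors. Of the 26 initiation factors 11 were lower with TMM and 8 with no factor. No paired analysis was possible because each genotype has 1 library, and for the same reason no replicate could be left out. Low counts limit Rpl3l, Rpl34, Rps27, Rpl29 and Rpl32l, whose counting intervals are wide. Of these, Rpl34 and Rps27 have mostly shared exons, as given above.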
